A study of Homo sapiens with 4 samples.

Results

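S100 proteins are a vertebrate family of small calcium sensors, and 9 genes of the family were followed here in JJ012 cells, an established human chondrosarcoma line. The members are S100A1, S100A2, S100A4, S100A6, S100A10, S100A11, S100A13, S100A16 and S100B. They were taken by gene symbol, each matched 1 row, and they are 9 of the 61806 genes in the deposited table. All 9 had enough counts to be tested, as did 14717 genes in all. The untreated group had 2 libraries of JJ012 cells with no agent. The Antcin K group had 2 libraries of the same cells given 10 µM Antcin K, a triterpenoid from the fungus Antrodia cinnamomea, for 24 h. Every sample is labelled WT, which here means that no engineered allele is named. The labels name no vehicle for the untreated cells, nor do they tell if replicates came from separate cultures. The p-values therefore describe how far these particular samples spread, and that spread could be technical.

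An S100 protein is a dimer in which each chain carries a pair of EF hands, loops that bind calcium. Calcium opens a hydrophobic face, and the dimer then binds a target such as an annexin, a myosin heavy chain or p53. S100 proteins have no enzyme activity of their own. In cartilage, S100A1 and S100B are known from chondrocytes, and staining for S100 protein is a long-used aid in the diagnosis of cartilage tumours. Most genes of the family sit in a cluster on the long arm of chromosome 1, while S100B lies on chromosome 21.

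Library totals ran from 16911257 to 26270686 counts. Mitochondrially encoded genes took 26.0% of the counts in untreated replicate 1, 12.9% in untreated replicate 2, 13.5% in Antcin K replicate 1 and 19.3% in Antcin K replicate 2. Log2 expression correlated across genes with r = 0.963 between the untreated libraries and r = 0.984 between the Antcin K libraries, and genes are not independent replicates. The untreated libraries thus stood further apart from each other. Of 11 cartilage markers, only SOX9 and COL11A2 had enough counts to be tested, and COL2A1 and CNMD had 0 counts in every library. SOX9 had 21.2 and 8.12 CPM without Antcin K and 5.19 and 10.5 CPM with it. ACAN, the gene of the cartilage proteoglycan aggrecan, had 1 and 0 counts without Antcin K and 4 and 0 with it, so the matrix genes that define cartilage were at or near 0. CPM are counts scaled to library size, with TMM factors. PTPRC and SOX10, which mark blood cells and melanocytes or Schwann cells, had 0 counts in every library.

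Transcripts of the family were abundant, and 4 members carried most of the signal. S100A4, S100A6, S100A10 and S100A11 together made up between 86.0% and 92.5% of the summed FPKM of the 9 members in each library. FPKM are fragments scaled by exonic length and by library total, the deposited measure used here wherever genes are compared with each other. S100A4 ranked highest over the 4 libraries with a mean of 1099 FPKM, and S100A11 followed at 835 FPKM, S100A6 at 678 FPKM and S100A10 at 436 FPKM. The ranges of these neighbours over the 4 libraries overlapped. Within each library, however, S100A10 was the lowest of the 4 genes. The order of S100A4, S100A6 and S100A11 differed between libraries. S100A2 had a mean of 157 FPKM and S100A16 one of 129 FPKM, with overlapping ranges. S100A13 stood apart from its neighbours at 61.3 FPKM, as did S100A1 at 3.62 FPKM and S100B at 0.825 FPKM.

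**Figure D1:**
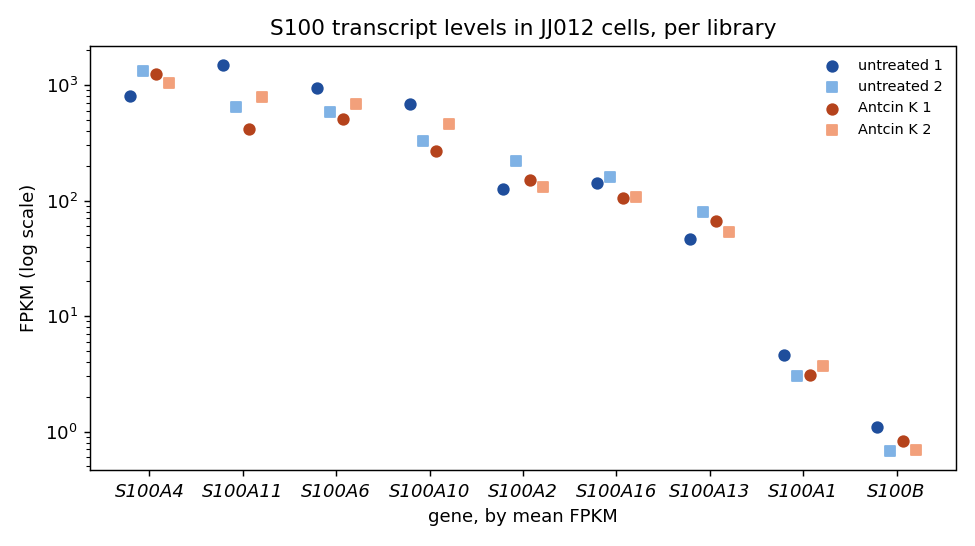
FPKM (log axis) of the 9 S100 genes in each library, with genes ordered by mean FPKM; each point is 1 library, circles are replicate 1 and squares replicate 2 of untreated (blue) and Antcin K (orange) cells. S100A4, S100A11, S100A6 and S100A10 lie between 268 and 1485 FPKM, and S100A1 and S100B below 5 FPKM.

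Against all genes tested, S100A4, S100A6, S100A10 and S100A11 lay at or above the 98.9th percentile of FPKM in every library. S100A2 and S100A16 lay between the 97.4th and 98.5th percentiles, and S100A13 between percentiles 94.8 and 96.3. S100A1 lay between the 60.7th and 68.9th percentiles, and S100B between the 31.7th and 38.8th. The members known from chondrocytes were therefore the lowest of the 9. The exonic length deposited for S100A1, 3030 bases, is the longest of the members, and FPKM divides by it. S100A1 also overlaps other genes on the opposite strand, so its level is uncertain.

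The share of each leading gene moved from library to library. S100A11 made up 35.2% of the members' summed FPKM in untreated replicate 1 and 19.4% in untreated replicate 2, and 15.1% and 24.1% in Antcin K replicates 1 and 2. S100A4 made up 18.9% and 39.4% without Antcin K and 45.2% and 31.6% with it. The ratio of S100A4 to S100A11 was 0.537 and 2.03 untreated and 2.98 and 1.31 after Antcin K. The lead of S100A4 over S100A11 was thus turned in 1 library, untreated replicate 1. The ratio of S100A11 to S100A10 was steadier, at 2.16 and 1.98 without Antcin K and 1.56 and 1.70 with it. Both treated ratios lay below both untreated ones. Ratios between members were not among the planned comparisons, and only some of the possible pairs are given. For single genes, 23.3% of all genes tested had both Antcin K libraries lower, and no such share was taken for ratios. The groups overlapped for the ratio of S100A4 to S100A11. They also overlapped for S100A4 to S100A10, at 1.16 and 4.03 without Antcin K and 4.66 and 2.23 with it.

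Cells given Antcin K for 24 h were compared with untreated cells, for which the labels give no time, in a series whose title concerns cell motility. Of the 9 members, the mean of 8 was lower and that of 1 higher in treated cells, with a median log2 fold change of -0.37 against -0.05 over all 14717 genes. A lower mean was found in 53.8% of all genes. By edgeR's quasi-likelihood test 0 of 9 members were called at an adjusted p under 0.05, where 0.0% of all genes were called. At an unadjusted p under 0.05 there were also 0 of 9 members, against 12.4% of all genes. DESeq2 called 0 of 9 members and 0.399% of all genes with an adjusted p. EdgeR without the count filter, or with a block for replicate numbers, also called 0 of 9, against 0.723% and 0.177% of all genes. A block of crossed numbers, added after seeing the data, called 1 of 9, S100A11, against 9.72%. In bulk RNA such as this, fewer cells with a transcript and less of it per cell cannot be told apart. For 8 of the 9 members the gap between the untreated libraries was larger than the difference between the group means. S100A16 was the exception, and was the only member whose groups did not overlap. Of all genes, 23.3% had both Antcin K libraries below both untreated ones, and 22.6% had both above.

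S100A16 encodes a widely expressed member whose N-terminal EF hand binds calcium poorly. The gene (ENSG00000188643) lies on the minus strand of chromosome 1 at chr1:153606886-153613145 on hg38. It had 6313 and 5128 counts without Antcin K and 3722 and 3068 with it, or 238 and 287 CPM against 172 and 183 CPM. Both Antcin K libraries were lower, and the replicates of each group were close. On the log2 scale the difference was -0.56 (standard error 0.25, 95% interval -1.14 to 0.02), or 1.48-fold lower (edgeR, adjusted p = 0.417). It was -0.69 without untreated replicate 1 and -0.41 without untreated replicate 2, so the direction did not rest on either. Marker sums of other cell types are given beside this result. Every library was of the JJ012 line, so a sum does not show that such cells were present. The 7 fibroblast markers summed to 77.3 and 35.5 CPM without Antcin K and 13.9 and 24.7 CPM with it, with 4 of 7 testable and all 4 lower in mean, and DCN, LUM and PDGFRA too low to test. The 5 myeloid markers summed to 17.2 and 31.5 CPM without Antcin K and 11.3 and 11.9 CPM with it. CSF1R, a growth factor receptor gene, made up most of that sum at 16.3 and 30.7 CPM against 10.8 and 11.2 CPM, while CD14 overlapped between the groups and PTPRC and LYZ were at 0. The 5 epithelial markers summed to 1.88 and 2.91 CPM without Antcin K and 1.71 and 1.37 CPM with it, although EPCAM, at 0 and 0.056 CPM against 0.0926 and 0.12 CPM, ran the other way. The 7 melanocyte and Schwann markers summed to 10.9 and 11.8 CPM without Antcin K and 12.2 and 12.5 CPM with it, higher in both Antcin K libraries, with SOX10 and TYR at 0. The 5 endothelial markers overlapped between the groups, at 7.75 and 12.3 CPM against 11.6 and 7.65 CPM. The part of other cells in the S100 levels was not tested.

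The other 8 members are best read by the order of their libraries, because the untreated replicates disagreed about them. S100A1, S100A6, S100A10 and S100A11 were highest in untreated replicate 1, then Antcin K replicate 2, untreated replicate 2 and Antcin K replicate 1. S100A2, S100A4 and S100A13 were highest in untreated replicate 2, then Antcin K replicate 1, Antcin K replicate 2 and untreated replicate 1. In the second order both Antcin K libraries lay between the untreated ones, and in the first 1 of them did. S100B had an order of its own. Of the 9 members, 5 were highest in untreated replicate 1 and 4 in untreated replicate 2, where 32.9% and 27.1% of all genes were highest. The first order was shared by 8.26% of all genes tested and the second by 8.47%. The second order is that of the mitochondrial share turned upside down. The first is that of the share with untreated replicate 2 (12.9%) and Antcin K replicate 1 (13.5%) exchanged. In both orders the untreated library with the highest mitochondrial share was at an end. The most common order among all genes, shared by 9.93%, also had that library at an end. The part of mitochondrial content in these levels was not tested. By deposited FPKM, S100A1 took the order of the mitochondrial share and S100B took another order, both with untreated replicate 2 lowest. The orders of the other 7 members were the same.

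**Figure D2:**
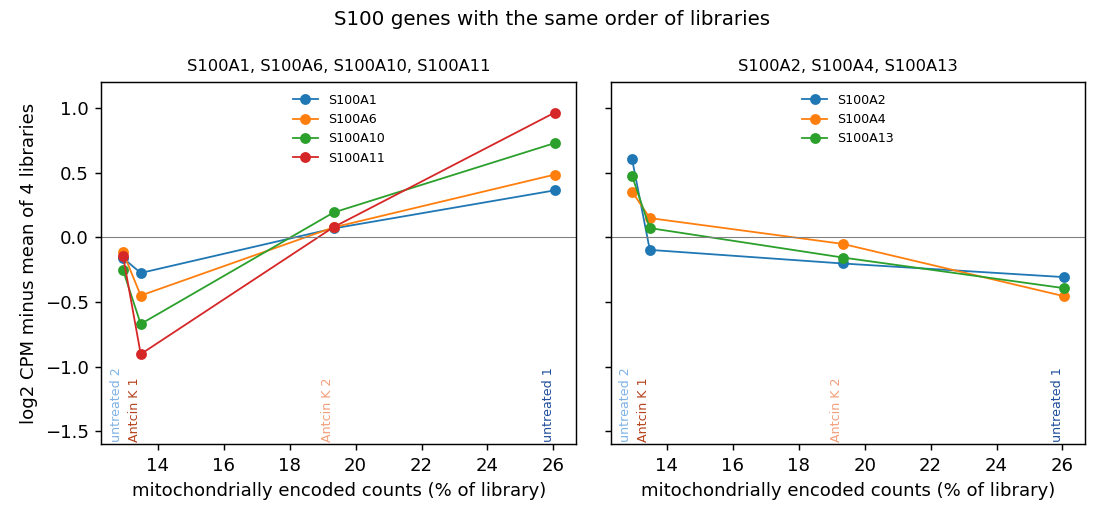
Log2 CPM of each gene minus its mean over the 4 libraries, against the percentage of the library's counts from mitochondrially encoded genes; lines join the 4 libraries of 1 gene. At the highest share, 26.0% in untreated replicate 1, the genes of the left panel are at their highest and those of the right panel at their lowest.

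The promoters of the second set are shown with that of S100A10, from the first set, as examples. Windows of 250 bases before to 50 after a transcript start came from RefSeq on GRCh38.p14, and 8 of the 9 members had 12 windows between them. Capitals mark TATAAA, the TATA box, and TGANTCA, the AP-1 site, each searched on both strands. S100A2 and S100A13 have more than 1 window each, and only the one with a match is given. The windows of S100A1, S100A6 and S100A11, of the first set, are not shown. Because windows were picked by match, those shown do not compare the sets.
S100A4 (chr1:153545757-153546056, minus strand): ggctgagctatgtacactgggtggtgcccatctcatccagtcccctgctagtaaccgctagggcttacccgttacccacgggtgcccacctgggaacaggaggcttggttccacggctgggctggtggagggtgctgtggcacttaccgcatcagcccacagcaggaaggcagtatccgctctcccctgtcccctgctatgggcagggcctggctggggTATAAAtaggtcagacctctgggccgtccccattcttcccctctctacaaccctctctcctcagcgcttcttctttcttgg
S100A13 (chr1:153627456-153627755, minus strand): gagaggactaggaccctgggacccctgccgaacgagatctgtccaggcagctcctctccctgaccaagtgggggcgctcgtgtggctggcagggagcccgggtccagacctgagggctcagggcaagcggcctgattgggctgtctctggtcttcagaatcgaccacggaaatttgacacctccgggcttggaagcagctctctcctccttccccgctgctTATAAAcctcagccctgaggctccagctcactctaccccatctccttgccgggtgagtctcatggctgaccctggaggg
S100A2 (chr1:153565795-153566094, minus strand): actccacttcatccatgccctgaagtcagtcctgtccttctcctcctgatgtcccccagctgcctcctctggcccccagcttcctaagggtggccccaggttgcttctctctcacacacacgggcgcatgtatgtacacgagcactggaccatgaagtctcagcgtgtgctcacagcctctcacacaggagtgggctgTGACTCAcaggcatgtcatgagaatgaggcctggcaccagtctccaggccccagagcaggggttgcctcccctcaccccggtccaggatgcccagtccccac
S100A10 (chr1:151993810-151994109, minus strand): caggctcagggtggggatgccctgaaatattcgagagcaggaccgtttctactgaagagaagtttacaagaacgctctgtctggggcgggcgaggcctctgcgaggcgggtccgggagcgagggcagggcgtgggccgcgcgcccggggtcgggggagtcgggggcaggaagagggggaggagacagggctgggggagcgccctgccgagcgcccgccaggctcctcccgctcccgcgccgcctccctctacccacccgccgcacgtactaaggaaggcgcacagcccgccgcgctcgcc
TATAAA was found in 2 of the 12 windows, of S100A4 and S100A13, and its first base lay 31 and 29 bases before the start. Of all 35116 RefSeq windows of this length, 11.5% held it. TGANTCA was found in 1 of the 12, of S100A2, 52 bases before the start, and in 7.71% of all windows. A loose form of the NF-κB site, GGG and CC with any 5 bases between them, was found in 9 of the 12 windows and in 58.7% of all windows, and it is not marked. These matches describe letters and not bound sites.

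S100A11, or calgizzarin, is a partner of annexin A1. The gene (ENSG00000163191, chr1:152032506-152047907, minus strand) had 953 and 442 CPM without Antcin K and 261 and 515 CPM with it. Its highest and lowest libraries differed 3.65-fold, the widest range among the members, and the groups overlapped. The table lists 13 S100A11 pseudogenes, which held 2 counts in all. On the log2 scale the difference was -0.85 (standard error 0.45, 95% interval -1.89 to 0.20, edgeR, adjusted p = 0.469). It was -0.18 without untreated replicate 1 and -1.29 without untreated replicate 2.

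S100A10 is the light chain of annexin A2 and holds it in a tetramer at the plasma membrane, where the complex binds plasminogen. It is unusual in the family because its EF hands have lost calcium binding. The gene (ENSG00000197747, chr1:151982915-151993859, minus strand) had 686 and 347 CPM without Antcin K and 260 and 473 CPM with it. The groups overlapped, with the highest value in untreated replicate 1 and the lowest in Antcin K replicate 1. On the log2 scale the difference was -0.50 (standard error 0.42, edgeR, adjusted p = 0.636), and it turned to 0.08 without untreated replicate 1.

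S100A6, or calcyclin, was named for its rise in growing cells and binds the ubiquitin ligase adaptor CACYBP. The gene (ENSG00000197956, chr1:153534599-153536244, minus strand) had 899 and 593 CPM without Antcin K and 470 and 677 CPM with it. Again the groups overlapped. On the log2 scale the difference was -0.38 (standard error 0.34, edgeR, adjusted p = 0.662), and without untreated replicate 1 it was -0.04.

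S100A4 is known as a metastasis-associated protein that binds the heavy chain of non-muscle myosin and loosens its filaments. The gene (ENSG00000196154, chr1:153543613-153550136, minus strand) had 746 and 1307 CPM without Antcin K and 1134 and 987 CPM with it. Both Antcin K libraries lay between the untreated ones. On the log2 scale the difference was 0.05 (standard error 0.36, 95% interval -0.78 to 0.88, edgeR, adjusted p = 0.967). That interval includes both a fall and a rise of 1.5-fold. Without untreated replicate 1 the value was -0.30, and without untreated replicate 2 it was 0.52.

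S100A2 binds p53 and is best known from epithelial cells. The gene (ENSG00000196754, chr1:153561108-153567890, minus strand) had 192 and 360 CPM without Antcin K and 222 and 206 CPM with it. Both Antcin K libraries again lay between the untreated ones. On the log2 scale the difference was -0.37 (standard error 0.33, edgeR, adjusted p = 0.663), and its sign turned without untreated replicate 2, at 0.17.

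S100A13 takes part in the release of FGF1 and interleukin 1α, proteins that leave the cell without a signal peptide. The gene (ENSG00000189171, chr1:153618787-153631360, minus strand) had 101 and 185 CPM without Antcin K and 140 and 120 CPM with it, a log2 difference of -0.14 (standard error 0.32, edgeR, adjusted p = 0.876). Without untreated replicate 2 the value was 0.37. Of its export clients, FGF1 had 0.753 and 2.74 CPM without Antcin K and 0.926 and 1.37 CPM with it, so the groups overlapped, and it was named after its values were seen. IL1A did not have enough counts to be tested.

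S100A1 is best known from heart muscle, where it binds the calcium pump and the calcium release channel. The gene (ENSG00000160678, chr1:153627926-153632039, plus strand) had 370 and 173 counts without Antcin K and 193 and 190 with it, or 13.9 and 9.69 CPM against 8.94 and 11.4 CPM. The groups overlapped, and the log2 fold change of -0.22 had a standard error of 0.30 (edgeR, adjusted p = 0.781). S100A1 shares 3435 bases with S100A13 on the opposite strand, which held 11026 counts over the 4 libraries against 926. S100A1 also shares 4114 bases with a gene without a symbol on the opposite strand, which held 255 counts. The strand setting of the counting is not given in the sources used here, so reads of these genes cannot be told apart with certainty.

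S100B is the classic S100 protein of glia, melanocytes and chondrocytes. The gene (ENSG00000160307, chr21:46598604-46605208, minus strand) had 52 and 23 counts without Antcin K and 31 and 21 with it, or 1.96 and 1.29 CPM against 1.44 and 1.25 CPM. The groups overlapped, and the log2 fold change of -0.28 had a standard error of 0.44 (edgeR, adjusted p = 0.817). The 95% interval ran from -1.29 to 0.73.

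**Figure D3:**
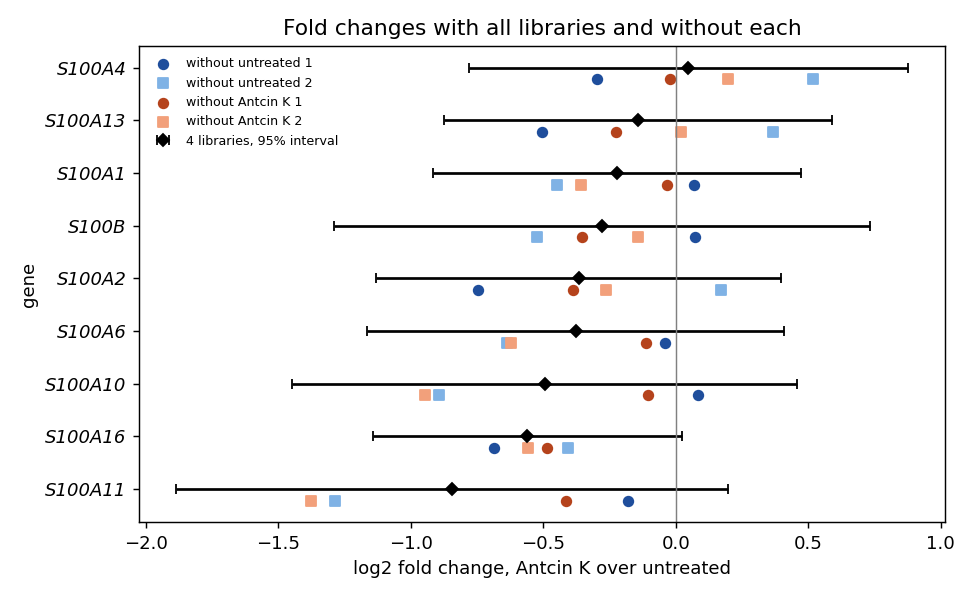
Log2 fold change of each member, Antcin K over untreated, from edgeR with 4 libraries (black diamonds, bars are 95% intervals) and without each library in turn (coloured points). All 9 intervals include 0, and the points without untreated replicate 1 and without untreated replicate 2 lie at opposite ends for 7 of the 9 members, all but S100A10 and S100A11.

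Leaving out either untreated library gave calls, and on other members each time. Without untreated replicate 1, edgeR called S100A2, S100A13 and S100A16 as lower after Antcin K (adjusted p = 0.000131, 0.0261 and 0.000643), where 9.38% of all genes were called. Without untreated replicate 2, it called S100A6, S100A10 and S100A11 as lower and S100A4 as higher (adjusted p = 0.00205, 4.95e-05, 0.00120 and 0.0261), where 25.2% of all genes were called. These fits assume that the lone untreated sample varies like the Antcin K pair. The 2 sets share 0 members. Without either Antcin K library 0 members were called, as were 0.0519% and 0.019% of all genes.

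Of 12 other S100 genes, 4 had enough counts to be tested, 2 with a lower and 2 with a higher mean, and 0 were called by edgeR. S100A8, S100A12, S100G and S100A7L2 had 0 counts in every library, which allows a level of up to 0.113 to 0.179 CPM per library for 3 counts, a limit for counting error only. S100A8, with S100A9, forms calprotectin of myeloid cells, and S100A9 had 3 and 4 counts without Antcin K and 0 and 1 with it. S100A3 had 60.9 and 124 CPM without Antcin K and 71.9 and 59.5 CPM with it (log2 fold change -0.49), so the groups overlapped. Its interval lies within that of S100A4 on the same strand, with 6383 counts over the 4 libraries against 84170, so its counts are uncertain. S100A5 had 6.21 and 7.95 CPM without Antcin K and 5.37 and 5.68 CPM with it (-0.36, edgeR, adjusted p = 0.647). S100A7, a psoriasis-linked skin protein, stood at 0.790 and 1.23 CPM without Antcin K and 0.834 and 1.37 CPM with it.

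Between S100A10 and S100A1, the outermost members on chromosome 1, the table lists 91 genes, and 11 had enough counts to be tested. All 11 were S100 genes, namely the 8 members there with S100A3, S100A5 and S100A7. The stretch also holds fused-type S100 genes of skin, such as FLG, the filaggrin gene, and of 7 such genes 0 could be tested. Of the 11, the mean of 9 was lower and that of 2 higher in treated cells.

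Several S100 proteins work by binding annexins. Of 6 annexin and AHNAK partners, 2 had a lower and 4 a higher mean and 0 were called by edgeR, with a median log2 fold change of 0.25. ANXA2, the heavy partner of S100A10, had 1225 and 1568 CPM without Antcin K and 2337 and 1974 CPM with it (0.63 on the log2 scale, standard error 0.34, edgeR, adjusted p = 0.474). Both Antcin K libraries were higher, as was found for 22.6% of all genes. The table also lists 3 ANXA2 pseudogenes with 8041 counts against 144045 for ANXA2, so its level is less certain. AHNAK, a giant scaffold bound by the complex of S100A10 and annexin A2, had 303 and 241 CPM without Antcin K and 340 and 427 CPM with it.

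ANXA1, the partner of S100A11, had 106 and 66.4 CPM without Antcin K and 29.8 and 34.2 CPM with it. Both Antcin K libraries were lower, as for 23.3% of all genes. The log2 difference was -1.43 (standard error 0.29, edgeR, adjusted p = 0.366). DESeq2 called ANXA1 over all genes (adjusted p = 0.0120), as did edgeR without the count filter (adjusted p = 0.00165). EdgeR with a block for replicate numbers did not (adjusted p = 0.129), nor did other scalings, FPKM or leaving out mitochondrial genes. The log2 difference of ANXA1 was -1.05 without untreated replicate 1 and -1.72 without untreated replicate 2. CACYBP, the partner of S100A6, had 64.5 and 46.7 CPM without Antcin K and 42.6 and 48.8 CPM with it, and the groups overlapped. It overlaps MRPS14 on the opposite strand, so its counts are uncertain. MYH9, the myosin bound by S100A4, had 446 and 250 CPM without Antcin K and 241 and 373 CPM with it, and its groups overlapped as well.

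The ratio of an S100 transcript to its partner was taken within each library from FPKM. S100A10 stood to ANXA2 at 6.41 and 2.53 without Antcin K and 1.27 and 2.74 with it. The highest ratio was in untreated replicate 1 and the groups overlapped, so the treated mean of 2.01 ± 1.04 and the untreated mean of 4.47 ± 2.74 (SD, n = 2 per group) did not differ beyond their spread. S100A11 stood to ANXA1 at 61.5 and 45.6 without Antcin K and 60.0 and 103 with it. S100A6 stood to CACYBP at 66.2 and 60.3 without Antcin K and 52.4 and 65.9 with it. S100A4 stood to MYH9 at 30.1 and 94.0 without Antcin K and 84.6 and 47.7 with it. The groups overlapped for all 4 ratios, and that of S100A6 to CACYBP varied least.

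**Figure D4:**
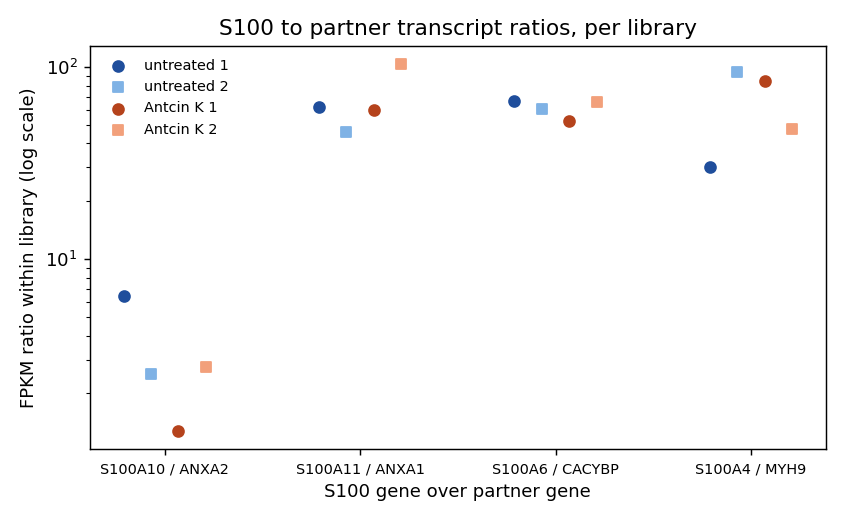
Ratio of FPKM within each library (log axis) for 4 S100 genes over a partner gene; circles are replicate 1 and squares replicate 2 of untreated (blue) and Antcin K (orange) cells. The groups overlap for all 4 pairs.

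Of 22 intracellular targets of S100 proteins, 20 could be tested, 13 with a lower and 7 with a higher mean (median log2 fold change -0.13), and 0 were called by edgeR. STK38L, a kinase of the NDR family that S100B activates, had 59.8 and 47.9 CPM without Antcin K and 25.5 and 22.8 CPM with it (log2 fold change -1.16, edgeR, adjusted p = 0.366). Both Antcin K libraries were lower, and without the count filter edgeR called it (adjusted p = 0.0272). CAPZA1, an actin capping subunit gene, had 22.9 and 17.2 CPM without Antcin K and 12.97 and 9.98 CPM with it (-0.81). It overlaps ST7L on the opposite strand. STIP1, a co-chaperone gene, had 439 and 622 CPM without Antcin K and 899 and 806 CPM with it (0.68).

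Secreted S100 proteins act through receptors at the cell surface. Of 7 tested, 4 had a lower and 3 a higher mean (median log2 fold change -0.68), and 0 were called by edgeR. AGER, the gene of RAGE, had 2.86 and 3.64 CPM without Antcin K and 1.67 and 1.49 CPM with it, or -1.03 on the log2 scale (standard error 0.38, edgeR, adjusted p = 0.377). TLR4, a receptor for calprotectin, had 7.83 and 7.06 CPM without Antcin K and 4.63 and 4.12 CPM with it (-0.76). CD36, a scavenger receptor gene, had 1.13 and 0.896 CPM without Antcin K and 0.509 and 0.359 CPM with it (-1.20). For these 3, which have the lowest p of the list, both Antcin K libraries were lower, as for 23.3% of all genes. ALCAM, an adhesion molecule gene, was also lower in both by CPM, at 44.8 and 27.4 without Antcin K and 17.8 and 27.2 with it. By deposited FPKM the ALCAM groups overlapped, at 6.31 and 3.64 without Antcin K and 2.59 and 3.76 with it. FGFR1, a growth factor receptor gene, was higher in both, at 75.7 and 68.3 CPM without Antcin K and 96.1 and 99.3 CPM with it. BSG and NPTN overlapped between the groups. These 4 were named after their values were seen.

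Among other EF-hand genes, 26 of 31 could be tested, 11 with a lower and 15 with a higher mean (median log2 fold change 0.04), and 0 were called by edgeR. RCN1, a reticulocalbin of the endoplasmic reticulum, had 13.2 and 13.2 CPM without Antcin K and 5.09 and 6.15 CPM with it (-1.23, edgeR, adjusted p = 0.366). SPARC, a matrix glycoprotein gene, had 117 and 108 CPM without Antcin K and 162 and 165 CPM with it (0.54). MYL12B, a myosin light chain gene, had 275 and 315 CPM without Antcin K and 450 and 435 CPM with it (0.58). The SOX trio of cartilage is known to switch on S100A1 and S100B, and 2 of the 3 genes had a lower mean, 1 a higher mean and 0 were called by edgeR. SOX5 had 0.677 and 1.23 CPM without Antcin K and 0.417 and 0.239 CPM with it, and SOX6 had 0.263 and 0.336 CPM against 0.509 and 0.538 CPM. SOX6 overlaps C11orf58 on the opposite strand, with 3326 counts against 33, so its values are uncertain. SOX9, whose values stand above, had the order of libraries of S100A11, and its groups overlapped.

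Genes whose levels ran most like those of a member were found by distance between centred log2 CPM over the 4 libraries, among 7031 genes with a mean of at least 10 CPM. Nearest to S100A16 were IL21R, a cytokine receptor gene (distance 0.0311), and PHLDA3, a p53-regulated gene (0.0521). Nearest to S100A10 were ATP13A2, a lysosomal polyamine transporter gene (0.0196), and TAX1BP3, a PDZ protein gene (0.0542). Nearest to S100A11 were MGAT4B, a glycosyltransferase gene (0.130), and EPN1, an endocytic adaptor gene (0.141). MGAT4B overlaps SQSTM1 on the opposite strand, which held 270994 counts against 3776, and TAX1BP3 overlaps CTNS in the same way. With 4 libraries such likeness is a description only.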

How the data were processed

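RNA of 4 JJ012 samples was sequenced as paired-end reads, per the labels' protocols. Per the submitters' processing notes, cutadapt 1.9.1, HISAT2 2.2.1, HTSeq 0.6.1 and the build hg38 were used, while the sources used here give neither annotation release nor strand setting. The deposited table holds raw counts per gene and FPKM that the authors scaled by exonic length (also deposited) and library total. Counts were filtered with filterByExpr (minimum count 10), and TMM scaling and a robust quasi-likelihood fit on group alone came from edgeR 4.0.16 (R 4.3.3). P-values were adjusted by Benjamini-Hochberg over 14717 genes, with calls under 0.05. Replicates of both groups differed by more than counting noise. Profiles used log2(CPM + 0.5). Alternatives used DESeq2 1.42.0 and limma 3.58.1. The tests were tried on simulated data.

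The members and lists were chosen with earlier results of these data known. The 35 genes named by rule were the members, ANXA2, ANXA1, CACYBP, MYH9, up to 3 tested genes of lowest p in each list without markers (other S100, fused-type, annexin and AHNAK partners, targets, receptors, other EF-hand, SOX), the 2 of lowest p between the outermost chromosome 1 members, and the 2 nearest profiles for each of the 3 members with the largest log2 fold change. The marker lists had 2 of 11 cartilage, 4 of 7 melanocyte and Schwann, 2 of 5 myeloid, 2 of 5 endothelial, 2 of 5 epithelial and 4 of 7 fibroblast genes with enough counts to be tested.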

Additional observations from a re-analysis of the deposited data

How the results depend on the processing

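Every member had at least 21 counts in each library, and each group had 2 libraries. Other scalings, FPKM with either pseudocount or no minimum, and leaving out mitochondrial genes gave 0 calls over all genes and kept every member's direction. Over all genes edgeR called 208 without the count filter and 26 with a block for replicate numbers, and DESeq2 called 53. Leaving out 1 library gave between 3 and 3971 calls, and between 0 and 4 among members. The replicate block called 0 members and changed no direction. Deviations from the group means correlated at -0.32 between samples of the same number. With 2 libraries per group this value cannot tell if the samples were prepared in pairs, and the labels name no pairing. Crossing the replicate numbers as a block, chosen after seeing the data, gave 1430 calls and 1 member. TPM gave the same order of all 9 members. Without 1 library the log2 fold change ran from -0.45 to 0.0685 for S100A1, -0.75 to 0.17 for S100A2, -0.30 to 0.52 for S100A4, -0.95 to 0.0838 for S100A10, -0.51 to 0.37 for S100A13 and -0.52 to 0.0726 for S100B. It ran from -0.53 to 0.30 for MYH9, for S100A3 from -0.91 to 0.12, S100A7 from -0.21 to 0.49, ATP13A2 from -0.95 to 0.10 and TAX1BP3 from -0.93 to 0.0716. The Antcin K over untreated ratio of ratios ran from 0.285 to 0.793 for S100A10 to ANXA2, 1.12 to 1.93 for S100A11 to ANXA1, 0.828 to 1.04 for S100A6 to CACYBP and 0.703 to 2.196 for S100A4 to MYH9. The cause was not tested.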
